A study of Mus musculus with 2 samples.

Results

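The cells described here are 293 of 15930 cells of mouse hippocampus, picked by a set of marker genes led by Fn1 and labelled subiculum-like pyramidal neurons. Cells were taken from 2 genotypes on the C57Bl.6/J strain: wild-type control mice, and mice homozygous for the knock-in allele Pigv341E. Pigv encodes a mannosyltransferase of the glycosylphosphatidylinositol (GPI) anchor pathway, which builds the lipid anchor that holds many proteins on the outer face of the cell membrane. For each genotype, 8 hippocampi of 4 mice were broken up by mechanical force at low temperature and combined into 1 droplet library (10x Chromium v3, Illumina sequencing), and no label ties a cell to a mouse. Age and sex are not given in the sources used here. With 1 pooled library per genotype there is no replicate, so differences between genotypes are described by size and no test was made. Genotype, pool and library preparation cannot be told apart.

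A cell was a member when at least 4 of 8 rule genes (Fn1, Gm42705, Stac, Kctd8, Rab38, Ndst4, Etv1 and 9330185C12Rik) had a value of 2 or more. Its Gad1 and Gad2 values had to sum to at most 2, and Prox1 and Flt1 had to lie below 2, which leaves out interneurons, granule cells and endothelial cells. The members were thus chosen by the values of these genes, and the high levels of the rule genes are a property of the choice and not a result. The wild-type library held 119 members among 7094 cells (1.68%, exact 95% binomial interval 1.39% to 2.00%). The knock-in library held 174 among 8836 cells (1.97%, 1.69% to 2.28%). The intervals overlap and cover counting error only. Just inside the limit, 19 wild-type and 50 knock-in members had 4 rule genes. Just outside it, 87 wild-type and 116 knock-in cells within the other limits had 3, and 1 wild-type cell with 4 or more failed the other limits. Only 1 member, from the knock-in library, carried a cell barcode that occurs in both libraries. The values are whole numbers that were normalised for depth by the submitters, and a member's values summed to a median of 10029 in wild-type and 9964 in knock-in cells, over a median of 4167 and 4216 genes. A level below is what a gene contributes to the summed values of a group of cells, per 10000. A fold or log2 ratio compares such levels after 0.1 was added to each.

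The subiculum is the output station of the hippocampal formation. Its pyramidal neurons receive the axons of CA1 and send excitatory axons to the entorhinal cortex, the thalamus and the hypothalamus, and many of them fire in bursts. Fn1, the gene of the matrix glycoprotein fibronectin, marks a part of these cells. Members were set against 3 groups of glutamatergic cells in the same libraries, named only by their own markers. These were CA1-like cells (488 wild-type and 647 knock-in), CA3-like cells (624 and 972) and cortex-like cells (97 and 178). Each such cell had Slc17a7 and Slc17a6 values summing to at least 2, fewer than 4 rule genes, and met the members' other limits. No such sum was required of members. CA1-like cells had at least 2 CA1 markers at 2 or more, and more of these than of CA3 markers. CA3-like cells had the reverse. Cortex-like cells had at least 2 of Cux2, Rorb and Mef2c at 2 or more and were in neither of these groups. The comparison groups were less clean than the members. Values of 2 or more for at least 2 markers of a non-neuronal or interneuron class were carried by 7.56% of wild-type and 9.20% of knock-in members, 13.3% and 16.7% of CA1-like cells, 44.4% and 49.9% of CA3-like cells and 71.1% and 65.2% of cortex-like cells.

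Stac, Kctd8 and Etv1 are the rule genes with an upstream stretch in the RefSeq promoter table, and Gm6260 is a gene outside the rule that was high in the same cells. Their 250 bases before the start site (GRCm38.p6, 5′ to 3′ on the gene's strand) are shown because these genes define or accompany the group. Capitals mark matches to the cyclic AMP response element (CRE) TGACGTCA, which is its own reverse complement, and to the E-box CAGATG. The ETS motif CCGGAAG, the kind of site that Etv1 and other ETS factors bind, was also searched on both strands. The 3 motifs do not overlap each other in these stretches.
Stac, chr9:111690349-111690598, minus strand: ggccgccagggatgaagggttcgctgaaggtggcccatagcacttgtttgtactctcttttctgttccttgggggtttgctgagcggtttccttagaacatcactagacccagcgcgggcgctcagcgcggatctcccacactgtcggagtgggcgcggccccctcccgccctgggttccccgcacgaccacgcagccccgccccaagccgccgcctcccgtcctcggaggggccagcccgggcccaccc
Kctd8, chr5:69341710-69341959, minus strand: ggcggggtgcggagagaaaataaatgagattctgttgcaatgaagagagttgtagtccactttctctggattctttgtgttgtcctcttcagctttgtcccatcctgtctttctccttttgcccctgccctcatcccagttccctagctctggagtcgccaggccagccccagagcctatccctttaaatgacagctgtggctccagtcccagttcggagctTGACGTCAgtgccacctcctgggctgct
Etv1, start further downstream, chr12:38783461-38783710, plus strand: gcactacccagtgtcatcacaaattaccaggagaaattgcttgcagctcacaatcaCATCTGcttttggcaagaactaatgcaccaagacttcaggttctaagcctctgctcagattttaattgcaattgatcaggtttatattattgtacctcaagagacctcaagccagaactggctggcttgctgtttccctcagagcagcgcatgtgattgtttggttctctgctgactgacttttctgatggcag
Gm6260, chr3:143712144-143712393, minus strand: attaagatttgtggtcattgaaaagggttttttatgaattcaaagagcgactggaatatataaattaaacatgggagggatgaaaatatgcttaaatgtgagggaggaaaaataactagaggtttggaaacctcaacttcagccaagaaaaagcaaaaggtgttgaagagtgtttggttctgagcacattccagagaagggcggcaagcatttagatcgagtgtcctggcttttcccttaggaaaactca
Kctd8 held 1 CRE, which begins 28 bases before the start, a motif found in 1.55% of 32851 upstream stretches of the same length. The downstream start of Etv1 held 1 E-box on the minus strand, beginning 194 bases before the start, a motif found in 14.4% of the stretches. The other Etv1 start (chr12:38779832-38780081), not shown, held none of the 3 motifs. The ETS motif, found in 6.91%, was in none of the 4 stretches shown. A match is a description of the letters and not evidence of binding.

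The rule genes have diverse roles. Fn1 (chr1:71585520-71653200) was at a level of 3.24 in wild-type and 3.76 in knock-in members, against at most 0.211 in any comparison group. An Fn1 value of 2 or more was found in 60.5% (51.1% to 69.3%) of the wild-type members and 54.6% (46.9% to 62.2%) of the knock-in members, so Fn1 was absent or low in many members. Ndst4 (chr3:125404076-125728899), an enzyme that N-sulfates heparan sulfate, reached 2 or more in 98.3% of members of both libraries. Its levels were 11.9 and 12.8, and CA1-like cells came next at 3.38 and 2.88. Etv1 (chr12:38779380-38870484), an ETS transcription factor, was at 7.52 and 7.45 in members and at 0.992 and 1.51 in CA1-like cells. Kctd8 (chr5:69109285-69341679), an auxiliary subunit of GABA-B receptors, was at 6.30 and 6.57 and at 0.621 or less elsewhere. Stac (chr9:111561437-111690348), an adaptor of voltage-gated calcium channels, was at 4.86 and 4.32 in members and at 1.55 and 1.26 in CA1-like cells. Rab38 (chr7:88430273-88491572), a small GTPase of lysosome-related organelles, was at 1.42 and 1.82. Between the genotypes the log2 ratios of these 6 genes were at most 0.34 in size. The long noncoding RNA gene 9330185C12Rik (chr1:113891385-113964134) was the exception, at 3.84 in wild-type and 1.47 in knock-in members.

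**Figure D1:**
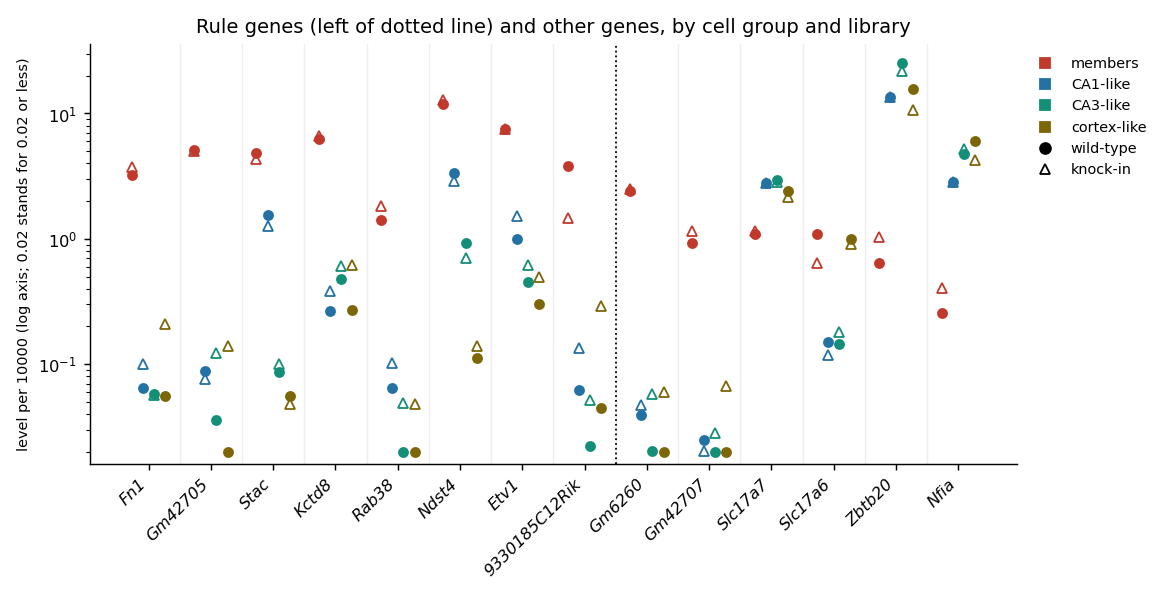
Level per 10000 (log axis) of the 8 rule genes and 6 other genes in members (red), CA1-like (blue), CA3-like (green) and cortex-like cells (brown), with filled circles for the wild-type and open triangles for the knock-in library. Gm6260 and Gm42707, which are not rule genes, are high in members only among the 4 groups, whereas Zbtb20 and Nfia are lowest there.

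Gm42705 is a long noncoding RNA gene on chromosome 3 (143743377 to 143827012, plus strand), at 5.12 in wild-type and 5.05 in knock-in members. Its neighbours on either side, also long noncoding RNA genes, were high in the same cells although the rule did not use them. Gm6260 (143670892 to 143712210, minus strand) was at 2.40 and 2.48 in members and at most 0.0602 in the comparison groups. Gm42707 (143878393 to 143954774, minus strand) was at 0.924 and 1.15, and at most 0.0663 elsewhere. The 3 genes cover 283.9 kb. The next protein-coding gene, Lmo4 (144188530 to 144205220, minus strand), a LIM-domain cofactor of transcription that lies 233.8 kb beyond the block, was at 1.51 and 1.63 in members and at 1.25 and 1.33 in CA1-like cells. Its level therefore did not follow that of the block. Overlapping and antisense genes cannot be separated where the counting did not use strand, and how strand was used is not given in the sources used here.

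The label was then held against genes the rule did not use. Slc17a7, the vesicular glutamate transporter of most hippocampal and cortical pyramidal cells, was at 1.10 and 1.15 in members, against 2.77 and 2.79 in CA1-like cells. Comparison cells were chosen by Slc17a7 plus Slc17a6 and members were not, so this gap is in part a property of the choice. Slc17a6, the second vesicular glutamate transporter, which subiculum neurons also carry, was at 1.09 and 0.635, well above CA1-like cells (0.150 and 0.119) but near cortex-like cells (0.988 and 0.916). Nts, the neurotensin gene of some subiculum cells, was at 0.390 in wild-type and 0.280 in knock-in members and at most 0.0380 in the comparison groups. The orphan receptor gene Gpr101 was at 0.305 and 0.134. Ly6g6e was listed at 0 in both libraries, and S100b was at 0.110 and 0.0932, no higher than in cortex-like cells. Values of 2 or more for Slc17a7 were found in 26.05% of wild-type and 28.16% of knock-in members, and for Slc17a6 in 22.69% and 12.64%. As a value of 1 may stand for no observed molecule, presence of either gene in most members cannot be read from these values. Beside the rule genes, which cannot support the label, only Slc17a6 and low levels of Nts and Gpr101 among these genes went with a subiculum label. Markers of other classes were present to different degrees. The CA1 marker genes summed to 7.19 and 8.60 in members, against 14.1 and 13.9 in CA1-like cells. CA1-like cells were chosen by these genes, so their higher sum is in part a property of the choice. Mpped1, one of these genes, was as high in wild-type members as in wild-type CA1-like cells (2.59 in both). The cortical genes summed to 3.11 and 3.40, the CA3 genes to 2.34 and 3.07, the oligodendrocyte genes to 1.66 and 2.27 and the choroid plexus genes to 1.06 and 1.25. Each of the other hippocampal, interneuron and non-neuronal lists summed to at most 0.932, except the microglia genes in knock-in members (1.89).

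Outside the rule genes, 75 of 2736 genes (2.74%) were at least 2-fold above each of the 3 comparison groups in both libraries, and 102 (3.73%) were at least 2-fold below each of them. Members and comparison cells were chosen by marker genes, and Cux2, Trps1 and Grik4, markers that chose comparison cells, are among the genes below. The counts describe the group and carry no test. The genes farthest above the others, with the smallest of their 6 folds (3 groups in 2 libraries), were Gm6260 (16.1-fold), Trmt9b, a tRNA methyltransferase family gene (8.40-fold), Gm42707 (7.504-fold), Elfn1, a postsynaptic organiser of presynaptic release (7.21-fold), and the adhesion receptor gene Adgra1 (4.74-fold). Fras1 and Adamts2, genes of extracellular matrix proteins, were at least 4.66-fold and 4.29-fold above, and the cadherin Cdh22 at least 4.42-fold. The genes farthest below were Zbtb20 (at least 9.53-fold), a transcription factor of hippocampal CA fields, Ptprk, a receptor phosphatase (7.18-fold), Gm49685 (6.43-fold), Fstl4 (5.95-fold), the transcription factor Nfia (5.87-fold) and the Eph receptor Epha3 (5.38-fold). Dcc, the netrin receptor, was at 1.07 and 0.839 in members and between 5.50 and 15.2 in the comparison groups. Without the comparison cells that carried markers of another class, the counts were 55 above and 64 below.

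Transcription factors set the members apart in both directions. Of 24 transcription factors compared, 4 were above each group and 5 below, beside 2.74% and 3.73% of all 2736 genes. The same shares over all genes stand beside the counts of the lists described next. The genes above were Etv5, Sox5, Bcl6 and Nr4a2, and those below were Zbtb20, Nfia, Meis2, Zeb2 and Rfx3 (apart from Etv5, Sox5, Zbtb20 and Nfia, these and the other single genes of such counts are named after their values were seen). Etv5, an ETS factor of the same subfamily as Etv1, was at 6.53 and 4.18 in members and at most 0.988 elsewhere. Fezf2, which specifies deep-layer projection neurons of the cortex, was at 1.10 and 1.05 against at most 0.191. Sox5, which acts in the same deep-layer neurons, was at 9.74 and 8.42 against at most 3.78. Bcl11b, which works downstream of Fezf2, was at 7.79 and 5.63 and next highest in CA1-like cells at 4.34 and 3.598. No comparison group was chosen by Fezf2, Sox5 or Bcl11b, and cortex-like cells were chosen by Cux2, Rorb and Mef2c alone. Whether members include deep-layer cells of the cortex was therefore not tested.

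Channels and receptors followed. Kcnip4, a subunit that modulates A-type potassium channels, was at 140.7 and 117.5, against 86.8 and 77.2 in CA1-like cells. Kcnd2, the A-type channel it binds, was lower in members (13.9 and 12.6) than in CA1-like cells (31.9 and 29.0). Grm8, a presynaptic metabotropic receptor, was at 14.7 and 13.1 in members and at most 4.28 elsewhere. The NMDA receptor subunit Grin2a was at 15.1 and 14.9, less than in CA1-like cells (32.2 and 29.99). Among 9 GABA-A receptor genes, Gabrg3 was at 12.7 and 11.4, at least 2.00-fold above each group.

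The families of 3 rule genes gave mixed pictures. Of 8 heparan sulfate genes, Hs3st2, a 3-O-sulfotransferase (1.74 and 1.62, at most 0.392 elsewhere), and Sulf2, which removes 6-O-sulfate (2.42 and 2.03, at most 1.06 elsewhere), were above each group and none was below. Ndst3, the paralog of Ndst4, was at 9.36 and 9.69 in members and next highest in CA1-like cells at 4.66 and 4.59. Hs6st3, a 6-O-sulfotransferase, was at 17.1 and 16.8, against 40.5 and 37.1 in CA1-like cells. Of 7 genes of the GABA-B receptor complex, none was above each group, and Kctd16 and Aplp1 were below. Kctd16, the relative of Kctd8 in that complex, was at 3.50 and 4.29 in members and between 8.25 and 12.2 elsewhere. Of 11 calcium channel and Stac genes compared, Stac2, a paralog of Stac, was above each group (2.25 and 1.38, at most 0.665 elsewhere). The channel subunits Cacna1d (1.55 and 1.67, at least 3.52 elsewhere) and Cacna2d1 were below. Of 15 fibronectin receptor genes only 3 were high enough to compare, too few to describe the group. The integrin Itga8 was at 0.653 and 1.25, against 3.18 and 3.17 in CA1-like cells.

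Among 23 genes of GPI-anchored proteins, the class that the Pigv pathway serves, Cntn4, Cntn6, Ntng1 and Gfra1 were above each group and Gpc5 below. Cntn4, a contactin of axon guidance, was at 16.3 and 18.1 against at most 7.30. Ntng1, a netrin-like synaptic adhesion protein, was at 12.2 and 15.3 against at most 6.87. Of 18 synaptic adhesion genes, only Lrrtm3 was above each group in both libraries. Its relative Lrrtm4, a postsynaptic partner of neurexins and heparan sulfate, was at 59.6 and 56.0 in members, 4.86 and 6.56 in CA1-like cells and 30.9 and 23.2 in CA3-like cells. None of 19 vesicle and active zone genes and none of 17 postsynaptic density genes was above or below each group.

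**Figure D2:**
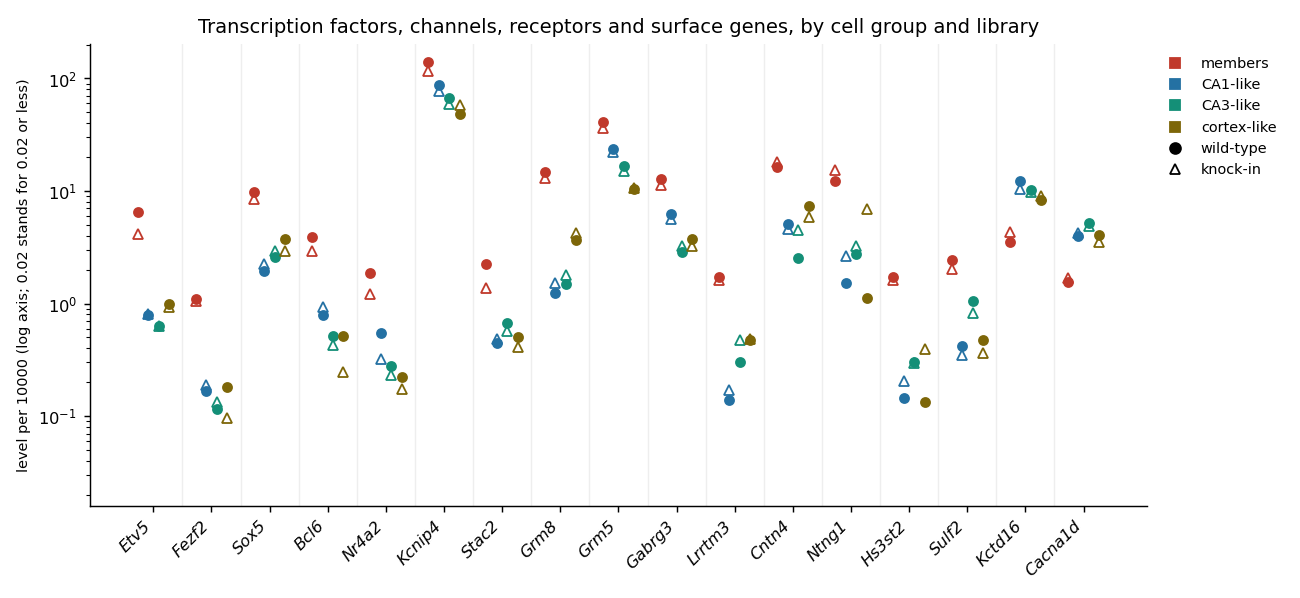
Level per 10000 (log axis) of transcription factors, channels, receptors, surface proteins and heparan sulfate enzymes in members and the 3 comparison groups, with filled circles for the wild-type and open triangles for the knock-in library. Etv5, Fezf2, Grm8 and Hs3st2 show wide gaps between members and the other groups, and Kctd16 and Cacna1d are lower in members.

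The members were not uniform. After the data were seen, they were divided by 6 genes that varied against each other. A member with a higher sum of Tshz2, Unc5c and Brinp3 than of Robo1, Kirrel3 and Cacnb2 was put on the Tshz2 side, and any other on the Robo1 side, with 2 wild-type and 1 knock-in cell tied. These 6 genes and the rule genes are left out of the counts that follow. Most cells lay near an end: the Tshz2 genes made up 80% or more of the summed 6 genes in 79 of 119 wild-type and 89 of 174 knock-in members, and under 20% in 11 and 55. On the Tshz2 side were 90 wild-type members (75.6%, exact interval 66.9% to 83.0%) and 100 knock-in members (57.5%, 49.8% to 64.9%), a share 18.2 percentage points lower in the knock-in library. Of all cells of a library, cells of the Tshz2 side were 1.27% in the wild-type library (1.02% to 1.56%) and 1.13% in the knock-in library (0.922% to 1.38%). The Robo1 side made up 0.409% (0.274% to 0.587%) and 0.838% (0.658% to 1.05%), with intervals that do not overlap. On the Robo1 side 13 of 29 wild-type cells and 40 of 74 knock-in cells had exactly 4 rule genes, the fewest the rule allows. Among members with 5 or more, an alternative chosen after the data were seen, the Robo1 side made up 0.226% (0.129% to 0.366%) and 0.385% (0.267% to 0.537%) of the libraries, and these intervals overlap. The intervals cover counting error only, and a difference between the pools in the tissue dissected was not tested. Weighted to the same mix of rule-gene counts, the gap between the libraries in the share of the Tshz2 side was smaller, at -11.8 percentage points (knock-in minus wild-type).

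**Figure D3:**
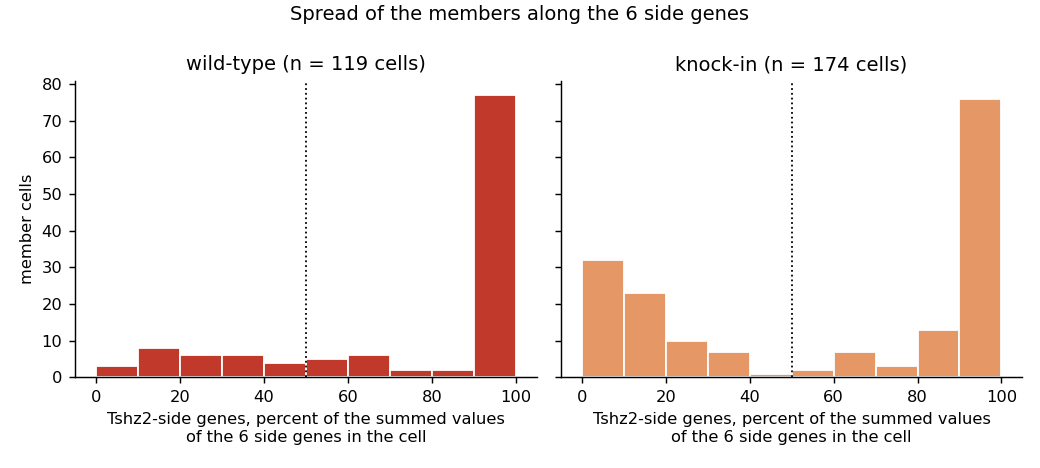
Number of member cells (vertical axis) by the percent that Tshz2, Unc5c and Brinp3 make up of the summed values of the 6 side genes (horizontal axis), for 119 wild-type and 174 knock-in members. Most cells of both libraries lie at the right end, and a group at the left end holds more knock-in than wild-type cells.

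Fn1 belonged mainly to the Tshz2 side, at 4.01 in wild-type and 6.04 in knock-in cells, against 0.835 and 0.659 on the Robo1 side. 9330185C12Rik was at 5.08 and 2.53 on the Tshz2 side, and at 0 in wild-type and 0.0274 in knock-in cells of the Robo1 side. The name of the group by Fn1 therefore fits the Tshz2 side, and the cells of the Robo1 side entered through the other rule genes. Gm42705 (5.21 and 5.19 against 4.84 and 4.86), Rab38 (1.38 and 1.89 against 1.53 and 1.72), Etv1 (8.10 and 7.99 against 5.71 and 6.72) and Fezf2 (1.04 and 0.941 against 1.29 and 1.19) were at similar levels on both sides. All but Fezf2 are rule genes, so their likeness between the sides is in part a property of the choice of members and not a result. Zbtb20 was low on both, at 0.437 and 0.780 on the Tshz2 side and 1.29 and 1.36 on the Robo1 side.

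Of 2278 genes compared, 68 (2.99%) were at least 2-fold higher on the Tshz2 side in both libraries and 118 (5.18%) on the Robo1 side. The neuropeptide S receptor Npsr1 was at 2.15 and 1.95 there and at 0.0348 and 0.0412 on the Robo1 side. The relaxin receptor Rxfp1 was at 3.95 in both libraries, against 0.0696 and 0.275. The serotonin receptor Htr1f was at 5.51 and 5.25, against 0.348 and 0.549. Elfn1, named above among the genes farthest above the comparison groups, was at 3.988 and 2.915, against 0.870 and 0.480. Gfra1, a GPI-anchored receptor for GDNF, was at 5.72 and 5.09, against 0.800 and 0.645, and the repressor Bcl6 at 4.88 and 4.67, against 0.905 and 0.590. Nts, at 0.515 and 0.456, was found almost only on the Tshz2 side, since the Robo1 side was at 0 and 0.0412. Robo1-side cells were higher in the cadherin Cdh4 (2.61 and 3.65, against 0.0560 and 0.132), the sorting receptor Sorcs3 (5.53 and 4.98, against 0.314 and 0.344), the adrenergic receptor Adra1a (1.71 and 2.28, against 0.0896 and 0.0911) and the transcription factor Zeb2 (5.57 and 5.98, against 0.571 and 0.648). The heparan sulfate enzyme Hs3st4 was at 6.58 and 7.67 on the Robo1 side and at 0.358 and 0.800 on the Tshz2 side.

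Genes of the sides were also compared with CA1-like cells. Of the 118 genes of the Robo1 side, 69 were at least 2-fold higher in CA1-like cells than on the Tshz2 side in both libraries. Of the 68 genes of the Tshz2 side, 9 were that much higher in CA1-like cells than on the Robo1 side. Each set was picked for low levels on the opposite side, the base of this comparison, so some overlap is built in. The shares over all 2278 genes are not given here. Man1a, a CA1 marker of the Golgi, is one of the genes by which CA1-like cells were chosen. It was at 6.54 and 6.82 on the Robo1 side, 2.18 and 2.04 on the Tshz2 side and 8.18 and 7.81 in CA1-like cells. Sorcs3 and Zeb2 followed the same order, whereas Cdh4 and Adra1a were higher on the Robo1 side than in CA1-like cells. Of the 75 genes above all comparison groups, 13 were at least 2-fold higher on the Tshz2 side and 3 on the Robo1 side. Over all 2278 genes compared between the sides, the shares were 2.99% and 5.18%. Most of the 75 genes did not differ that much, and their share on the Tshz2 side was above that over all genes. The 75 genes were chosen by levels over all members, of which 90 of 119 wild-type and 100 of 174 knock-in cells were on the Tshz2 side. A gene high only on that side passes more easily, so the higher share is in part a property of the choice and not a result.

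**Figure D4:**
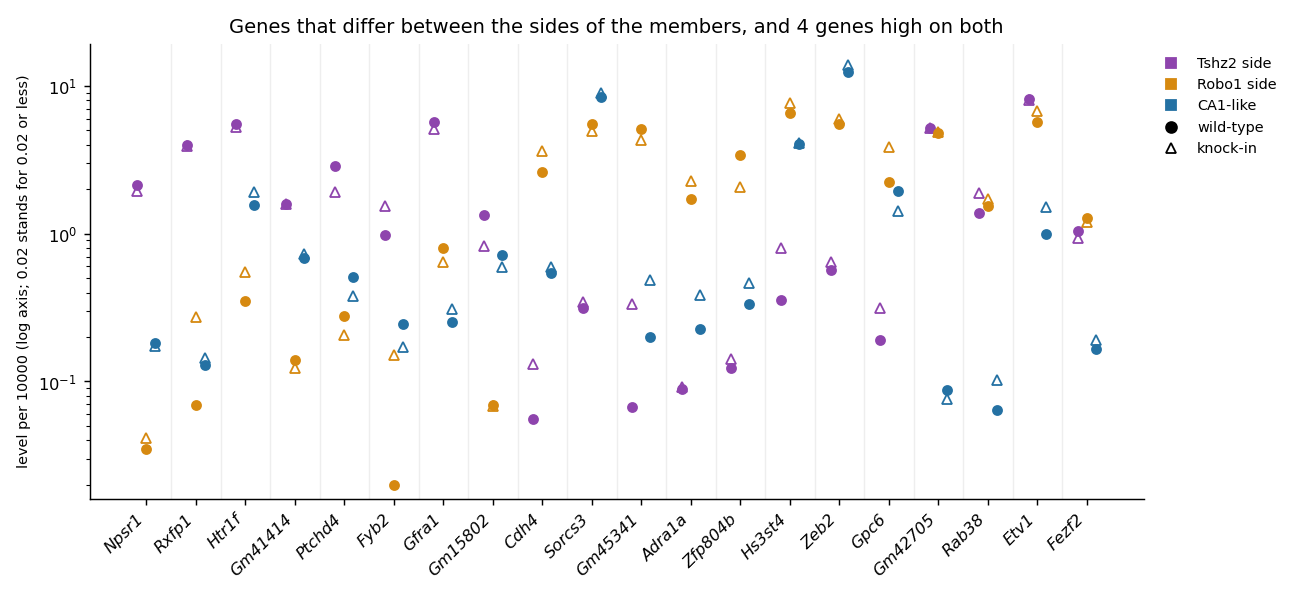
Level per 10000 (log axis) on the Tshz2 side (purple), on the Robo1 side (orange) and in CA1-like cells (blue) of 8 genes of each side and of 4 genes high on both, with filled circles for the wild-type and open triangles for the knock-in library. Npsr1 and Rxfp1 are near the floor of the axis on the Robo1 side and Cdh4 on the Tshz2 side, while Gm42705, Rab38, Etv1 and Fezf2 lie together. Gm42705, Rab38 and Etv1 are rule genes, by which the members of both sides were chosen.

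Knock-in members were then compared with wild-type members. Pigv itself (chr4:133660387-133672647) was at 0.0763 and 0.0874, which is too low to check the genotype, and a base substitution would not be seen in these values. A gene was counted as different when its level changed at least 2-fold, with a level of 1 or more and a value above 0 in at least 10% of members in one library. Of 1981 genes that could pass, 27 did (1.36%), 21 of them higher (1.06%) and 6 lower (0.303%) in knock-in members. The lower genes were Abl1, Zfp12, Sec22b, Trabd2b, Pak1 and the rule gene 9330185C12Rik. The largest changes were shared with the other neurons. Of the 27 genes, 9 in CA1-like, 10 in CA3-like and 12 in cortex-like cells changed at least 2-fold in the same direction. No level or detection limit was set in these groups for these counts. The shares of all genes that changed as much there are not given here, so the counts cannot be set against a background. Most cortex-like cells carried markers of another class (71.1% and 65.2%).

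Abl1 (chr2:31688376-31804227), a tyrosine kinase that acts in cytoskeletal signalling below Eph receptors, was at 6.44 in wild-type and 0.454 in knock-in members, a log2 ratio of -3.56. It was above 0 in 98.3% of wild-type and 35.6% of knock-in members. It was lower on both sides of the members (-3.31 and -4.003) and in CA1-like cells (-3.44). Its relative Abl2 was at 1.31 and 1.503. Zfp12 (chr5:143235163-143248834), a zinc finger gene, was at 1.07 in wild-type and 0.0466 in knock-in members (-2.99), and the ratio was -1.58 in CA1-like and -2.28 in CA3-like cells. Sec22b, a SNARE of transport between the endoplasmic reticulum and the Golgi, was at 6.30 and 2.94 (-1.07), with a ratio of -1.01 in CA1-like cells. It was above 0 in 99.2% and 93.1% of members.

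Hdc (chr2:126593667-126619299), the histidine decarboxylase that makes histamine, was listed at 0 in all 119 wild-type members and was above 0 in all 174 knock-in members, at a level of 6.15. The long noncoding RNA gene Gm14216 (chr2:154722352-154738451) behaved alike, at 0 in wild-type and 6.16 in knock-in members. In CA1-like cells Hdc was at 0.0521 and 7.85 and Gm14216 at 0.0500 and 7.38. The ratio to a group at 0 has no size, and none is given. Gm17660 was at 0.280 and 1.74, the cytochrome P450 gene Cyp4x1 at 0.153 and 1.05, and Rab40b, a small GTPase of a ubiquitin ligase complex, at 0.475 and 2.12. These genes passed the 2-fold limit on both sides of the members. Cst3, which encodes the secreted protease inhibitor cystatin C and is abundant in microglia and astrocytes, was at 0.788 and 2.31. The 7 microglia marker genes, of which none was at 0, summed to 0.508 and 1.89 in the same members and to 1.56 and 1.82 in CA1-like cells. Without the 9 wild-type and 16 knock-in members with markers of another class, the log2 ratio of Cst3 fell from 1.44 to 0.46, below the limit.

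**Figure D5:**
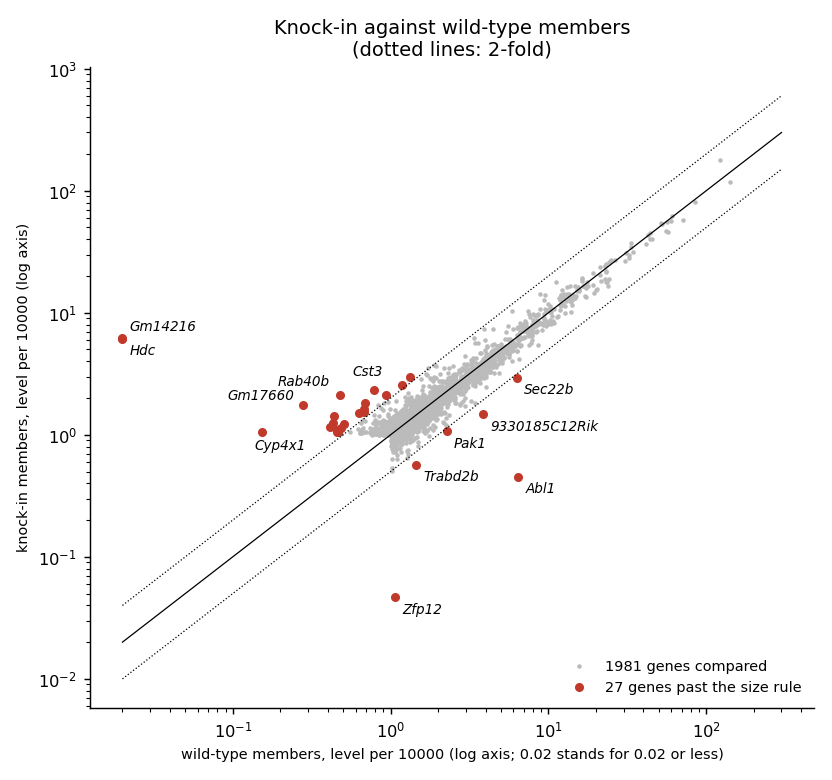
Level per 10000 in wild-type members (horizontal, log axis) against knock-in members (vertical, log axis) for 1981 genes in grey, with the 27 genes past the size rule in red, 12 of them named. Abl1 and Zfp12 lie far below the lower 2-fold line, and Hdc and Gm14216, at 0 in wild-type members, are drawn at the left edge.

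The sides were also compared between the genotypes one by one. Of the 27 genes, 16 changed at least 2-fold in the same direction on the Tshz2 side, 11 on the Robo1 side and 9 on both, and 9 did so on neither. The suppressor of cytokine signalling Socs2 had a log2 ratio of 1.498 over all members, 0.46 on the Tshz2 side and 1.04 on the Robo1 side. The glypican Gpc6 had a ratio of 1.28, but 0.51 and 0.76 within the sides. Both are genes of the Robo1 side, which made up 42.5% of knock-in and 24.4% of wild-type members. Megf11 (1.08 over all members) was at -0.09 and 0.62 within the sides, Fam19a2 (1.14) at 0.55 and 0.74, and Cdh4 (1.15) at 0.57 and 0.47. For other genes under the limit on both sides the ratio on the Tshz2 side was nearly that over all members. It was 0.96 against 1.04 for Ptn, 0.96 against 1.05 for Fbn2 and -0.98 against -1.02 for Pak1. On the Robo1 side the ratios were smaller, at 0.71 for Ptn, 0.42 for Fbn2 and -0.04 for Pak1. Fbn2 was itself a gene of the Robo1 side (1.496 and 2.031, against 0.123 and 0.334), so its ratio on the Tshz2 side rests on low levels. The transcript 9330185C12Rik was at -0.98 on the Tshz2 side, against -1.33 over all members. Syt17 had 0.85 and 0.79 within the sides, against 1.12 over all members. With the members weighted to the same mix of rule-gene counts in both libraries, 12 genes were higher and 5 lower. Angpt1, the ligand of the Tie receptor of blood vessels, was a gene of the Tshz2 side and was higher in knock-in cells within that side, where it was at 0.560 in wild-type and 2.08 in knock-in cells (1.72), and at 0.0348 and 0.137 on the Robo1 side. Trabd2b, a protease that acts on Wnt ligands, was at 1.45 and 0.565 in members (-1.22), with a ratio of -0.21 in CA1-like cells. Gm10925 and Gm28661, listed on chromosome 1 as unprocessed pseudogenes, had log2 ratios of 1.04 and 1.10, beside 1.11 for the mitochondrial gene mt-Nd1. Reads of such copies may be split between near-identical genes, so their values are uncertain.

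Eph receptors and ephrins, surface proteins that guide axons, together with Abl kinases were followed as a group because Abl1 acts in their signalling. Abl1, the lower gene of largest change in these same members, is itself counted in the list values that follow. Of 24 genes, 14 were measured at a level of 0.2 or more, 3 of them higher and 11 lower in knock-in members, and 1 of 10 that could pass, Abl1, passed the size rule. Their median log2 ratio was -0.26, against 0.0025 for 8053 genes at that level, of which 4049 were higher and 4004 lower. The levels of the whole list summed to 76.7 in wild-type and 63.1 in knock-in members. The sum was also lower in knock-in cells of the other groups. It was at 86.8 and 72.5 in CA1-like, 67.1 and 47.2 in CA3-like and 40.5 and 33.1 in cortex-like cells. Epha5, the receptor of A-type ephrins, was at 17.1 and 13.6, and within the Tshz2 side at 19.6 and 17.8. Epha7 was at 4.01 and 2.45 and Epha4 at 2.14 and 1.28. Epha6, at 34.6 and 31.6, was below CA1-like cells (48.0 and 42.1). Efna5, the GPI-anchored ephrin, went the other way with 3.44 and 5.60. It was a gene of the Robo1 side (6.16 and 8.19, against 2.56 and 3.70 on the Tshz2 side), and its ratio over all members was 0.69.

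Genes of the GPI pathway differed little. Of 28 biosynthesis genes in the table, 16 were measured, 6 higher and 10 lower, with a median of -0.01, and none of them passed the size rule, for which 1 was high enough. That gene, Pigk of the transamidase that attaches proteins to the anchor, was at 7.56 and 9.78. Of 48 genes of GPI-anchored proteins, 33 were measured, 21 higher and 12 lower, with a median of 0.15, and 1 of 21, Gpc6, passed. Lsamp, an adhesion protein of limbic neurons, was at 71.4 and 57.9, and Cntn5 at 11.2 and 18. Lsamp also differed between the sides: it was at 83.8 and 78.7 on the Tshz2 side and 32.6 and 29.6 on the Robo1 side.

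Synaptic and channel genes were close to the whole. The median was -0.01 for 21 glutamate receptor genes, 0.02 for 23 channel genes, 0.0007 for 24 vesicle genes and -0.03 for 25 adhesion genes, and in each of these lists 17 genes could pass the size rule and none did, where 1.36% of all genes passed. Of 18 postsynaptic density genes, 5 were higher and 13 lower, with a median of -0.11. The extracellular matrix genes had a median of 0.19 over 18 genes, and 1 of 4, the fibrillin Fbn2, passed. Of 7 immediate early genes measured, 2 were higher and 5 lower, with a median of -0.37 that was -0.0002 with values of 1 set to 0 and -0.09 with 1 added in place of 0.1. Homer1 was at 4.85 and 3.23 and Arc at 0.517 and 0.216, neither past the rule. All 5 mitochondrially encoded genes measured were higher, with a median of 0.94, and 1 of 4, mt-Nd1, passed. Their sum was 3.35 and 6.80 in members and 5.84 and 12.4 in CA1-like cells, so the same direction was seen there. Mitochondrial values, a common sign of cell condition, made up a median of 0.0197% of a wild-type and 0.0390% of a knock-in member, and the part of cell condition in these differences was not tested.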

How the data were processed

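The deposited table holds whole numbers per gene and cell from Seurat's SCTransform normalisation, as its name states. The authors thereby set each cell to a similar total, so the values are a corrected score and not molecule counts, a 1 may stand for no observed molecule, and sequencing depth is unknown. The submitters' processing notes name Seurat 3.0.0 and the build GRCm38. Aligner, cell filter and doublet removal are not given in the sources used here.

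Column names gave the library. Both libraries come from 1 pool each, so no count model, error between replicates or test was used, and sizes alone are given. Members and gene lists were chosen with earlier results of these data known. Shares have exact Clopper-Pearson 95% intervals for counting error only. Named genes were the rule genes, up to 6 genes at 0.5 or more per list, Pigv and Abl1, up to 10 genes higher and 10 lower past the size rule, and the 20 highest and 10 lowest against the comparison groups. Other genes were named after their values were seen. Doublets were called with Scrublet in scanpy 1.11.5 (61 wild-type and 209 knock-in cells, 0 and 1 of them members) and kept except in an alternative. Comparison groups were not cleaned. Gene positions are from GENCODE M21 (GRCm38), promoter stretches from RefSeq (GRCm38.p6), in which 3 of the 8 rule genes had an entry. Some genes the naming rule picks are not reported here.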

Additional observations from a re-analysis of the deposited data

How the results depend on the processing

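Results were recomputed under 12 alternatives set beforehand and 3 chosen after the data were seen (each side of the members alone, and comparison cells without markers of another class). Not every alternative was run for every result. The share of members stayed within its counting error, with differences of -0.0063 to 0.378 percentage points. The share of the Tshz2 side was lower in the knock-in library under all 6 settings run for it, by -10.5 to -18.4 percentage points. Its use as a result to recompute was decided after the data were seen. The Eph and Abl list kept a median between -0.32 and -0.17. Counts of genes moved most. With 3 of the 8 rule genes required, 3 genes were lower in knock-in members, 34 were above and 14 below all comparison groups. With values of 1 set to 0, 35 were higher and 15 lower. With 1 added in place of 0.1, 4 were higher and 1 lower, and 29 were above and 15 below the other groups. With equal mixes of rule-gene counts 12 were higher. Without a minimum level 71 were higher and 17 lower, and with a log2 limit of 1.5 the counts were 5 and 2. On the Robo1 side alone 12 were lower and 66 below all groups, and with cleaned comparison cells 64 were below. The ratio of 9330185C12Rik was 0.35 on the Robo1 side, where it is near 0 in both libraries. Of 242 recomputed ratios of 22 named genes, 20 moved by more than 1.5-fold, and 1 of a gene past the size rule changed sign. Sign changes of the other named genes were not counted. Pigv, for one, went from 0.09 to -0.04 without members with markers of another class. No paired analysis was possible because each genotype has 1 library.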
